A study of Homo sapiens with 2 samples.

Results

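The ERK feedback genes are transcripts that the RAS-RAF-MEK-ERK cascade switches on and whose products, for the most part, damp that cascade. They were chosen by symbol, though with earlier results of these data known: 3 phosphatases (DUSP4, DUSP5, DUSP6), 3 Sprouty genes (SPRY1, SPRY2, SPRY4), 2 Spred genes (SPRED1, SPRED2) and 2 ETS factors (ETV4, ETV5), 10 genes in all of 22458 named on the array. Each had 1 probe set, and all 10 passed a filter on low level that kept 16902 genes. The arrays measured RNA of U87, an established glioblastoma cell line, from cells given 20 µM LXR623, a synthetic agonist of the liver X receptor, for 24 h, and from cells given the solvent, 0.1% DMSO. The treatment label of the DMSO array gives no time, and 24 h was assumed for it. Cells were treated in medium of reduced serum. Each treatment had 1 array, so the members' differences have no replicate error and no test, and each describes this pair of arrays alone. As RNA was taken from whole cultures, fewer cells expressing a gene and less RNA per cell cannot be told apart.

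The labels name U87 in the title, source and cell line fields, whereas the text on culture names HCT116, a colon carcinoma line. Of 11 mesenchymal markers measured, 10 lay above the 75th percentile of probe sets on both arrays. None of 14 colon epithelial markers did, and 9 of them lay below the median of both arrays. The picture was alike for astrocyte and neural progenitor markers, of which 0 of 10 lay above the 75th percentile and 8, GFAP among them, below the median. Probe sets differ in brightness for reasons other than RNA amount, so these ranks are rough, and mesenchymal markers are not particular to glioma. ABCA1, the cholesterol pump induced by the liver X receptor, stood at log2 10.09 with LXR623 and 8.30 with DMSO, and SREBF1, a lipogenic factor likewise induced by it, at 7.32 with LXR623 and 6.41 with DMSO, a check of the treatment labels.

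Growth factors bind receptor tyrosine kinases, adaptors load RAS with GTP, and RAF and MEK then activate ERK, which enters the nucleus and raises a set of early transcripts. Among them are brakes at several levels. The dual-specificity phosphatases remove phosphate from ERK itself, the Sprouty and Spred proteins act at the level of RAS and RAF, and ETV4 and ETV5, factors of the PEA3 group, carry the signal on to further genes. In glioma and other tumours with an active cascade these transcripts are widely read as a gauge of ERK output.

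The stretches around the annotated start sites of 3 members are shown. DUSP6 had the highest difference of the group, SPRY2, a Sprouty gene, ranked 4th, and SPRED1 had the lowest. The windows of SPRY1, which ranked 2nd, and of SPRED2, which ranked 9th, are not shown. The stretches shown run 5′ to 3′ along the gene from 250 bases before the start to 50 after it, and were taken from RefSeq on build GRCh38.p14. Capitals mark CGGAA, the GGAA core that ETS factors bind with a preceding C (TTCCG on the opposite strand), and the octamers of the repressor Capicua (CIC), which silences several ERK target genes until ERK relieves it. The DUSP6 window lies at chr12:89352452-89352751 on the minus strand, the SPRY2 window (the first of its windows) at chr13:80341077-80341376 on the minus strand, and the SPRED1 window at chr15:38252586-38252885 on the plus strand.
DUSP6: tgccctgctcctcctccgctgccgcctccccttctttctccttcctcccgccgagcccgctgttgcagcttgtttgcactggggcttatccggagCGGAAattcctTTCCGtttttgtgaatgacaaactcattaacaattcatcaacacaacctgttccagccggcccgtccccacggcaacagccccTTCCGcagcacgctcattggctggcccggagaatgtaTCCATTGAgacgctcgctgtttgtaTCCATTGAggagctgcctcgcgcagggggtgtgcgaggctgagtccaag
SPRY2: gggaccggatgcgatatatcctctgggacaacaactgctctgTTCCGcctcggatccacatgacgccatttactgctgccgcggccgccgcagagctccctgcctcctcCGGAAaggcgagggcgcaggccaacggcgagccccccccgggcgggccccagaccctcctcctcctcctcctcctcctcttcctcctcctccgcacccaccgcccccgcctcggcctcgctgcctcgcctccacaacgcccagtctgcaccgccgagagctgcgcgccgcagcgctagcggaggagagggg
SPRED1: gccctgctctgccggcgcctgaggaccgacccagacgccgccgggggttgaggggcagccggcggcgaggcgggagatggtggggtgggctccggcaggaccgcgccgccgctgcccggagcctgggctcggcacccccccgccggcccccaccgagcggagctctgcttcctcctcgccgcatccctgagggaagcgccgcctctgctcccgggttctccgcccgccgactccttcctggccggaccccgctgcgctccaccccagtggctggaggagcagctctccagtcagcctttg

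The DUSP6 window held CGGAA at 3 places and a Capicua octamer at 2, one beginning 24 bases before the start and the other 1 base after it. The octamers searched on both strands were TGAATGAA, TGAATGGA, TCAATGAA and TCAATGGA, and 3.77% of the 35114 windows of all genes held at least 1. Of the 10 windows found for 6 members, that of DUSP6 was the only one with an octamer. CGGAA was common, in 34.9% of all windows, and stood in 4 member windows, those of DUSP6, SPRED2, SPRY1 and SPRY2. The full ETS consensus CCGGAAGT, which contains CGGAA, was in 4.14% of all windows and in 0 member windows. The AP-1 site TGACTCA, in 4.95% of all windows, was in 1, the second SPRED2 window, and the cyclic AMP site TGACGTCA, in 1.85%, was in 0. A pair of direct AGGTCA repeats spaced by 4 bases, the arrangement that the liver X receptor prefers, was in 0.0199% of all windows and in 0 of the members' windows. These matches describe letters within 300 bases and say nothing of binding. GC content was 58.3% for DUSP6, 71.0% for SPRY2 and 76.3% for SPRED1, against a median of 58.7% over all windows. No window was matched for DUSP4, DUSP5, ETV4 and ETV5.

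The members' differences were small in size, and more members were higher than lower with LXR623. No member was 1.5-fold higher or lower with LXR623, where 4.38% of all genes passed that size in either direction (2.38% higher and 2.01% lower). With so small a share among all genes, a count of 0 among 10 members says little about them. The split of all genes depended on the scaling, with 402 genes higher and 339 lower as deposited, 319 higher and 427 lower with each array centred on its median, and 366 higher and 373 lower with a curve on level removed. With LXR623 8 members were higher by some amount and 2 were lower, and among all genes 48.8% were higher, 48.3% lower and 2.89% equal on both arrays. The members' median log2 difference, LXR623 minus DMSO, was 0.24, whereas that of all genes was 0.00. Of the members, 6 lay above the upper quartile of all differences (0.17) and 1 lay below the lower quartile (-0.15), where 25% of all genes lie on either side by construction. All 10 lay inside the central 95% of the differences of the 500 genes nearest to them in mean level, so none stood apart from the scatter of genes of like brightness.

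**Figure D1:**
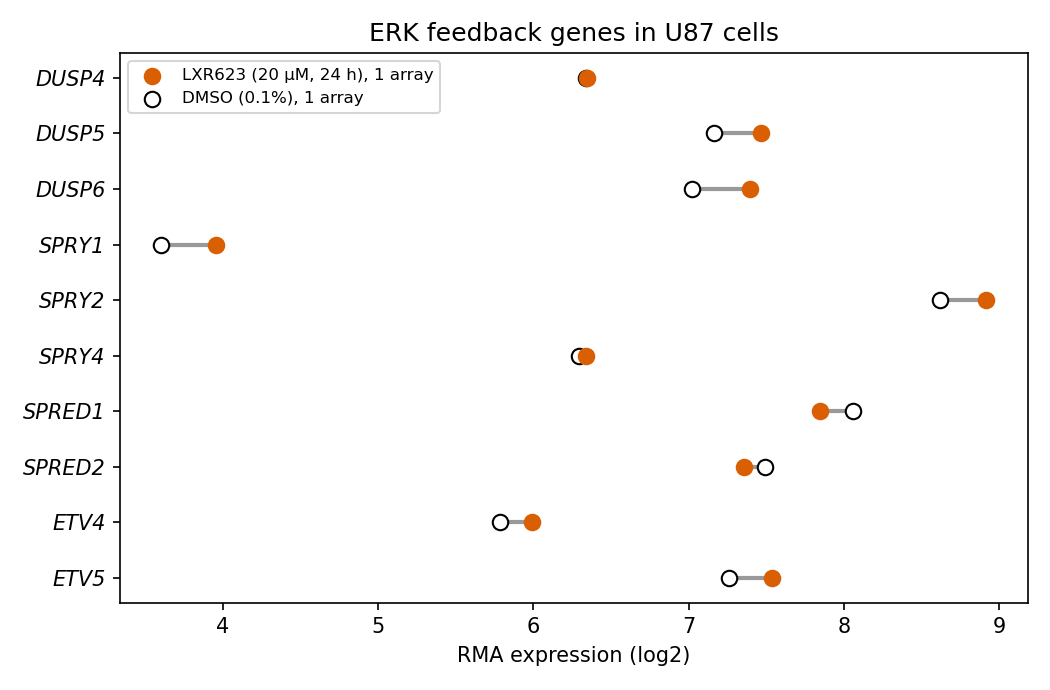
Expression of the 10 ERK feedback genes on the RMA log2 scale (horizontal axis), with the LXR623 array as filled points and the DMSO array as open points, 1 array each. DUSP5, DUSP6, SPRY1, SPRY2, ETV4 and ETV5 sit to the right with LXR623, SPRED1 and SPRED2 to the left, and the points of DUSP4 and SPRY4 nearly coincide.

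Among the phosphatases, DUSP6 had the largest difference of the group. DUSP6 (Entrez gene 1848), a cytoplasmic phosphatase that is selective for ERK, was at log2 7.40 with LXR623 and 7.02 with DMSO, 1.30-fold higher. Its difference of 0.37 exceeded those of 94.0% of the 500 genes of like level, whose central 95% ran from -0.56 to 0.57. DUSP5 (Entrez gene 1847), which binds and dephosphorylates ERK in the nucleus, was at 7.46 with LXR623 and 7.16 with DMSO, 1.23-fold higher and above 93.2% of genes of like level. DUSP4 (Entrez gene 1846), a nuclear phosphatase of broader choice that also acts on JNK, was at 6.35 with LXR623 and 6.34 with DMSO. The phosphatases thus fell into a pair that was higher with LXR623 by 0.30 and 0.37 and a gene with a difference of 0.01, whose sign turned (-0.03) when each array was centred on its own median.

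The Sprouty genes showed a similar range. SPRY2 (Entrez gene 10253), a membrane-associated inhibitor that binds the adaptor GRB2 and the ubiquitin ligase CBL, was at log2 8.92 with LXR623 and 8.62 with DMSO, a difference of 0.30 that exceeded 92.4% of genes of like level. SPRY1 (Entrez gene 10252), known for restraining receptor signalling in kidney development in mice, was at 3.96 with LXR623 and 3.60 with DMSO. Its difference of 0.35 was second only to that of DUSP6, but SPRY1 was dim, its mean level lying 0.39 above the filter. The central 95% of genes of like level ran from -0.53 to 0.71, and SPRY1 exceeded 84.0% of them. SPRY4 (Entrez gene 81848), which also inhibits RAS activation by receptors, was at 6.34 with LXR623 and 6.29 with DMSO, a difference of 0.04 that shrank to 0.00 with each array centred on its median.

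Both Spred genes were lower with LXR623, the opposite sign to the Sprouty genes, to which they are related through the cysteine-rich Sprouty domain. The Spred proteins bring neurofibromin, the GTPase-activating protein encoded by NF1, to the membrane, where it switches RAS off. SPRED1 (Entrez gene 161742) was at log2 7.85 with LXR623 and 8.06 with DMSO, a difference of -0.21 that lay above 18.6% of genes of like level. SPRED2 (Entrez gene 200734) was at 7.35 with LXR623 and 7.49 with DMSO, a difference of -0.14 above 30.2% of them. NF1 itself differed by -0.20 (8.57 with LXR623 and 8.77 with DMSO). These are small differences, and the test of Spred against Sprouty genes over samples is not available with 1 array per treatment. SPRED1 and SPRED2 span over 100 kb, as no other member does. The 2684 genes of that span had a median difference of -0.06 with 59.8% of them lower with LXR623, against 0.05 and 39.8% for the 5186 genes under 10 kb. With a smooth trend on level removed, SPRED1 differed by -0.18 and SPRED2 by -0.10. With a further trend on span removed, a setting chosen after the data were seen, they differed by -0.13 and -0.05. DUSP6, SPRY1 and SPRY2 span under 10 kb, as no other member does. With both trends removed they differed by 0.37, 0.26 and 0.29, and as deposited by 0.37, 0.35 and 0.30. The part of gene span in the differences of these members was not tested.

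Both ETS factors were higher with LXR623. ETV5 (Entrez gene 2119), whose mRNA follows ERK activity in many cell types, was at log2 7.54 with LXR623 and 7.26 with DMSO, a difference of 0.27 that exceeded 93.8% of genes of like level. ETV4 (Entrez gene 2118), its close relative, was at 5.99 with LXR623 and 5.79 with DMSO, a difference of 0.20 above 79.8% of them. ETV5 spans over 50 kb, a class of genes that was lower on the whole (median -0.04 for spans of 50 to 100 kb), and its difference was 0.31 with the trend on level removed and 0.34 with that on span removed too. CIC, which represses both genes, was at 6.87 with LXR623 and 6.78 with DMSO.

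**Figure D2:**
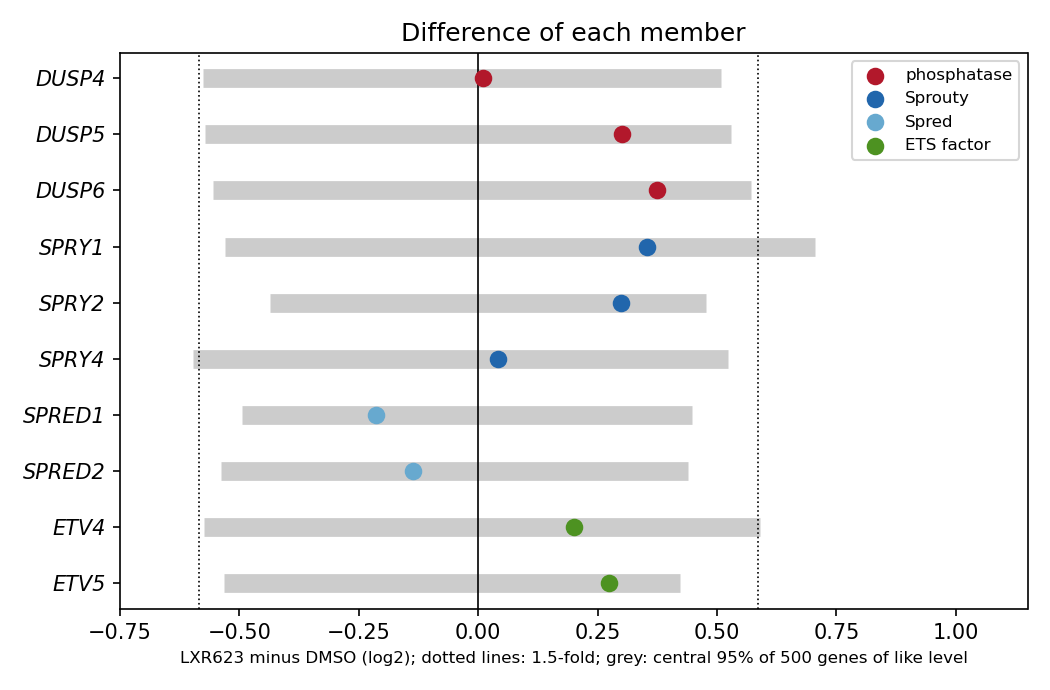
Difference of each member, LXR623 minus DMSO, on the log2 scale (points, coloured by family), with the central 95% of the differences of the 500 genes nearest in mean level (grey bars) and the 1.5-fold limits (dotted lines). Every point lies inside its bar and inside the limits, from -0.21 for SPRED1 to 0.37 for DUSP6.

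In order of their differences the members ran DUSP6, SPRY1, DUSP5, SPRY2, ETV5, ETV4, SPRY4, DUSP4, SPRED2 and SPRED1. The wider gaps were those between ETV4 and SPRY4 (0.16) and between DUSP4 and SPRED2 (0.15). All other neighbours were 0.08 or less apart, and even the whole range of the members, 0.59, was narrower than the central 95% of genes of like level for every one of them. No order within the group can therefore be read from these arrays.

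Further genes of the same families, left out of the 10, were also more often higher than lower with LXR623. All 10 such genes passed the filter, 8 were higher with LXR623 and 2 lower, and the median was 0.31. None reached 1.5-fold. Among all genes, 48.8% were higher and 4.38% passed 1.5-fold in either direction. DUSP1, an immediate-early phosphatase that acts on p38 and JNK as well as ERK, was at log2 9.21 with LXR623 and 8.68 with DMSO. Its difference of 0.52, the highest among the 20 family genes, lay outside the central 95% of genes of like level (-0.42 to 0.45). DUSP16 and DUSP8, which favour JNK and p38 over ERK, differed by 0.44 and 0.40, and SPRY3 by 0.41, all inside their ranges. DUSP10, another phosphatase of p38 and JNK, differed by -0.16 and ETV1, the third PEA3 factor, by -0.16. The other phosphatases of this list, DUSP2, DUSP9 and DUSP7, differed by 0.27, 0.10 and 0.03. SPRED3 differed by 0.34, so that the lower values of the Spred family were those of SPRED1 and SPRED2.

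Components of the cascade had differences around 0. Of 13 genes listed, 7 were analysed here. Of these, 2 were higher with LXR623 and 5 were lower, with a median of -0.07. None reached 1.5-fold, where 4.38% of all genes did. HRAS was at log2 7.15 with LXR623 and 7.49 with DMSO, the widest difference at -0.34. ARAF, a RAF kinase, differed by 0.24, MAPK3, which encodes ERK1, by 0.12 and LAMTOR3, a scaffold for MEK, by -0.12. All 7 lay inside the central 95% of genes of like level.

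Adaptors and regulators of RAS gave a median of -0.01 over 13 genes, with 6 higher and 7 lower. Of them 1 was past 1.5-fold, CAV1, the caveolar coat protein, at log2 9.67 with LXR623 and 10.33 with DMSO. GAB1, a docking protein below several receptors, differed by -0.45, RASAL2, a GTPase-activating protein for RAS, by 0.30 and TESK1, a kinase that binds Sprouty proteins, by 0.23. The partners of SPRY2, GRB2 and CBL, differed by -0.12 and 0.10.

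Other transcripts that ERK can raise were spread to both sides of 0. Over 15 genes the median was 0.01, which turned to -0.03 with each array centred on its median, 8 genes were higher and 7 lower. None was 1.5-fold higher and 3 were at least 1.5-fold lower, where 2.38% and 2.01% of all genes were. EPHA2, an ephrin receptor, was at log2 6.46 with LXR623 and 7.21 with DMSO. HBEGF, a ligand of the EGF receptor, was at 6.63 with LXR623 and 7.32 with DMSO, and EPHA4, another ephrin receptor, at 4.90 with LXR623 and 5.51 with DMSO. Each of these 3, the lowest of the 15 genes, lay outside the central 95% of genes of like level. At the other end UPP1, uridine phosphorylase, differed by 0.57 and the immediate-early gene FOS by 0.47, both inside their ranges. The other 10 genes of the list lay between -0.13 and 0.21. Of these, FOSL1, PHLDA1, CCND1 (cyclin D1) and EGR1 differed by -0.13, -0.07, -0.03 and -0.02. IER2, SPHK1, MYC, PLAUR, EGR3 and IER3 differed by 0.01, 0.07, 0.12, 0.14, 0.19 and 0.21.

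Kinases and transcription factors below ERK had a median of 0.05 over 14 genes, with 8 higher and 6 lower. MKNK2, a kinase that phosphorylates the cap-binding factor eIF4E, was 1.56-fold higher, at log2 7.58 with LXR623 and 6.94 with DMSO. It was the 1 gene of the list past 1.5-fold, where 2.38% of all genes were at least 1.5-fold higher. RPS6KA2, a ribosomal S6 kinase of the RSK group, differed by 0.58, ATXN1, a partner of Capicua, by 0.25 and ELK4, a ternary complex factor, by -0.25. MKNK2 and RPS6KA2 lay outside the central 95% of genes of like level.

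Inhibitors that act on receptors, a layer above the Sprouty genes, were mostly of the other sign, with 2 of 9 genes higher and 7 lower and a median of -0.18. LRIG3, of a family that limits receptor tyrosine kinases, was at log2 4.74 with LXR623 and 5.34 with DMSO, and was the 1 gene of this list at least 1.5-fold lower. ERRFI1, an inducible inhibitor of the EGF receptor, was at 9.66 with LXR623 and 10.02 with DMSO, a difference of -0.36 that lay above 4.0% of genes of like level. LRIG1 differed by -0.24 and the ubiquitin ligase CBLB by 0.29. Whether these lists differ from the ERK feedback genes was not tested, as each has 1 array per treatment.

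**Figure D3:**
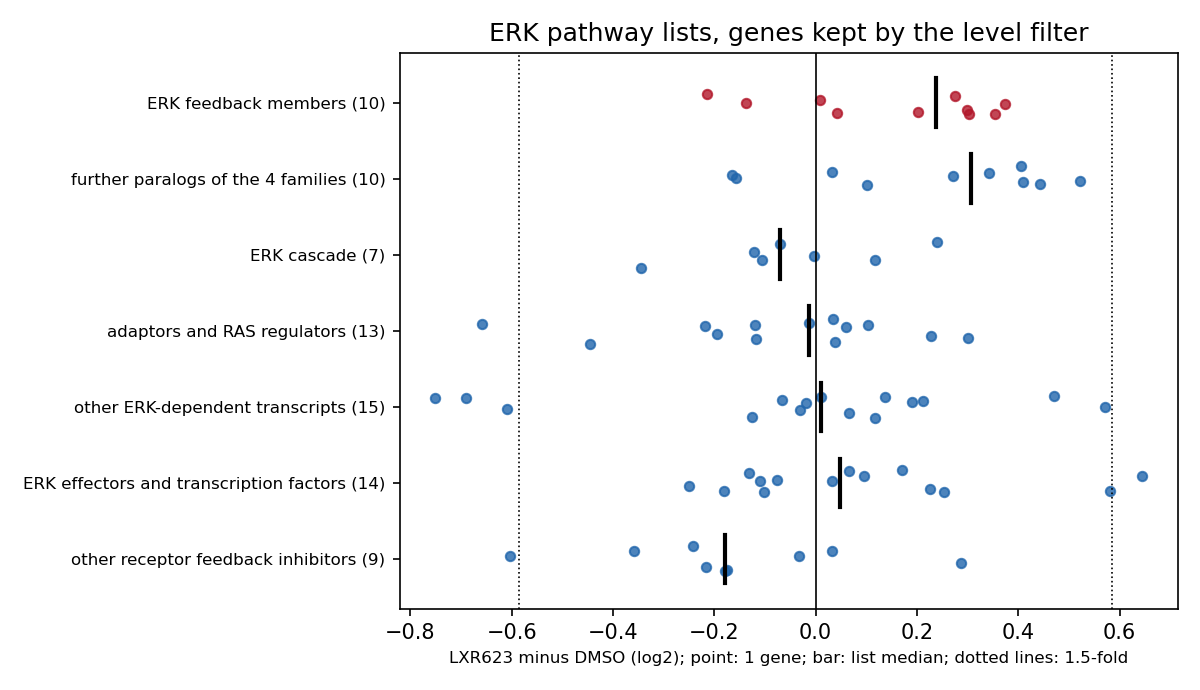
Differences of the ERK feedback genes and of 6 further lists of the pathway, LXR623 minus DMSO on the log2 scale (horizontal axis), with 1 point per gene, a bar at each list median, the number of genes in brackets and dotted lines at 1.5-fold. The medians are 0.24 for the ERK feedback genes, 0.31 for their further family genes, and between -0.18 and 0.05 for the other lists.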

How the data were processed

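Total RNA was labelled with biotin and hybridised to Affymetrix arrays, 1 for LXR623 and 1 for DMSO. The values, deposited on a log2 scale with 1 per probe set, were made by the authors with RMA (background correction, quantile normalisation, median polish) in the affy package 1.36.1 and R 2.15.1, as the submitters' processing notes state. Quantile normalisation removes shifts shared by most genes, and RMA compresses differences of dim sets. The array's build was not given in the sources used here. Symbols came from the platform annotation (22458 of 23786 sets named, 0 with several symbols). Genes were kept at a mean of at least log2 3.39, the 25th percentile of all sets.

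For each gene LXR623 minus DMSO was computed, with no p-value, and set beside the 500 kept genes nearest in mean level. Named were the 10 members, up to 4 genes of each further pathway list with the widest difference, and ABCA1 and SREBF1. GFAP, NF1, CIC, GRB2, CBL, DUSP2, DUSP7, DUSP9, DUSP10, ETV1, SPRED3, FOS, EGR1, CCND1, PHLDA1, FOSL1, IER2, SPHK1, MYC, PLAUR, EGR3 and IER3 were named after their values were seen. The members and lists were chosen with earlier results of these data known. Alternatives were median centring, removal of a lowess curve (span 0.3), other level filters, the mean, leaving out the widest gene, a 2-fold limit and, chosen after seeing the data, removal of a further curve on gene span, which came from the RefSeq gene table. The counting step was tested on simulated data. Python 3.11.15, numpy 2.4.6, pandas 2.3.3, statsmodels 0.14.6 and matplotlib 3.10.9 were used.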

Additional observations from a re-analysis of the deposited data

How the results depend on the processing

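Of 20 member values under the scalings planned, 1, that of DUSP4, changed sign. Median centring lowers every difference by 0.040, so that genes equal on both arrays become lower, and 7 members were then higher with LXR623, against 43.5% of all genes. It turned the split of all genes past 1.5-fold, to 319 higher and 427 lower, as did removal of the curve on level, to 366 higher and 373 lower, against 402 higher and 339 lower as deposited. The members' median ran between 0.15, when the mean was taken instead, and 0.25, when a curve on level was removed, and was 0.23 with the further curve on gene span. The count of members past 1.5-fold was 0 under each scaling and with the 2-fold limit. Among all genes, the filter at the 50th percentile left 436 past 1.5-fold and the 2-fold limit left 85 of 741, both by construction. No median of a list moved by 0.1 or more. No paired analysis was possible because the design holds a single array for each treatment. With no replicates, differences of the size seen here cannot be set against biological spread.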
